A study of Homo sapiens with 12 samples.

Results

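AKR1B10 and AKR1C3 are 2 members of the aldo-keto reductase family, enzymes that use NADPH to reduce aldehydes and ketones to alcohols. They were chosen by their log2 signals, which differed between groups of these arrays, and every probe set annotated to either gene was taken. There were 2 such probe sets among 16376, 206561_s_at for AKR1B10 and 209160_at for AKR1C3, and so 2 genes among the 8545 that could be named. Because their levels and differences guided the choice, they are given as a description without a test. Tests are reported only for other genes.

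The arrays came from SF539 and SNB19, both established human glioma lines labelled as glioblastoma. Each line was transfected by lipid carrier (Lipofectamine RNAiMAX) with PARK2 siRNA#2, PARK2 siRNA#1 or a scramble siRNA, and RNA was taken after 48 h. PARK2 encodes parkin, a ubiquitin ligase that tags damaged mitochondria. Each of the 6 groups had 2 arrays, 12 in all. All groups share the transfection procedure, and no untransfected cells were analysed here, so a difference from scramble can lie with either side. The lines were grown in different media, so line and medium cannot be told apart. The level of PARK2 was not analysed here, and the knockdown was not checked.

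Values are on the log2 scale, on which 1 unit is a doubling. Array medians lay between 5.94 and 6.14 and lower quartiles between 3.93 and 4.02, near which a probe set carries little signal over background. Within a group the 2 arrays had r across probe sets, a description over features that are not replicates, of 0.9911 for SF539 siRNA#2 up to 0.9981 for SNB19 siRNA#2. The median SD between replicates was 0.1264 in SF539 siRNA#2, the largest of the 6 groups, and 0.0658 in SNB19 siRNA#2, the smallest. Nothing in the labels ties replicates to separate cultures. The p-values therefore measure the spread between these arrays alone, and that spread may be technical. Precision is limited by having 2 arrays per group. Groups this small often fail to overlap without a real difference, and the share of all genes that did so was not counted. Of 10 glial markers measured, GFAP, S100B and FABP7 averaged 10.46, 8.49 and 12.12 in SNB19 with siRNA#2, 10.50, 8.27 and 11.67 with siRNA#1, and 6.90, 7.38 and 10.56 with scramble. In SF539 none of these 3 averaged over 3.95 in any group, close to the lower quartile. SOX2 averaged 9.11, 9.11 and 9.52 in SNB19 (siRNA#2, siRNA#1 and scramble) and at most 4.81 in SF539. SLC1A3 averaged 9.89, 8.80 and 9.62 in SNB19 and 7.84, 6.38 and 6.26 in SF539. AQP4 and OLIG2 were low in both lines, at most 3.31 and 3.63, while VIM and CD44 were high in both.

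AKR1B10 reduces retinal and reactive aldehydes from lipid peroxidation, and is best known from the gut and from tumours that switch it on. AKR1C3 reduces steroid ketones and prostaglandins, making active androgens and prostaglandin F from their precursors. Both genes are known human targets of NRF2 (NFE2L2), the transcription factor that KEAP1 holds in check until oxidants or electrophiles release it. NRF2 binds antioxidant response elements with small MAF proteins, where BACH1 competes with it.

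In RefSeq (GRCh38.p14) AKR1B10 lies on chromosome 7, at 134527567 to 134541412. AKR1C3 lies on chromosome 10, at 5048781 to 5107686, in a cluster with its close relatives AKR1C1 (4963415 to 4983283), AKR1C2 (4987775 to 5018000) and AKR1C4 (5196837 to 5218949). The RefSeq promoter windows of AKR1C1, AKR1C2 and AKR1C3 are printed because these neighbours had related but unequal changes. Each window runs from 250 bases before to 50 bases after a start in the RefSeq table and is written 5′ to 3′ on the gene's strand. The capitals mark ATTGG, which is the CCAAT box read on the other strand. The windows are chr10:4963165-4963464 on the plus strand for AKR1C1, chr10:5003808-5004107 on the minus strand for AKR1C2, and chr10:5048531-5048830 and chr10:5094164-5094463 on the plus strand for 2 starts of AKR1C3. The AKR1C2 window and the downstream AKR1C3 window lie inside the spans given above for their genes, so they stand at internal starts and not at the end of the span.
AKR1C1: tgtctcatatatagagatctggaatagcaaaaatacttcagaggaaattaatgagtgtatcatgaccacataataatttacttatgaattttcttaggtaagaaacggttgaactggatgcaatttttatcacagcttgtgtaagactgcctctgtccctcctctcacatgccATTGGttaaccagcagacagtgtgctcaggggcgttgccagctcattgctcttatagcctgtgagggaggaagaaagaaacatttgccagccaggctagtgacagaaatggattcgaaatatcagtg
AKR1C2: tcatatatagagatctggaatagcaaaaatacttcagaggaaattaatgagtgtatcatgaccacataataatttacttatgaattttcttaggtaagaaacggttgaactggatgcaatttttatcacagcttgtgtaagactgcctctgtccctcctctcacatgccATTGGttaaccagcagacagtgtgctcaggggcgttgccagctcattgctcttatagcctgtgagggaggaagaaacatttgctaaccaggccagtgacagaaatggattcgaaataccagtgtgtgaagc
AKR1C3, first window: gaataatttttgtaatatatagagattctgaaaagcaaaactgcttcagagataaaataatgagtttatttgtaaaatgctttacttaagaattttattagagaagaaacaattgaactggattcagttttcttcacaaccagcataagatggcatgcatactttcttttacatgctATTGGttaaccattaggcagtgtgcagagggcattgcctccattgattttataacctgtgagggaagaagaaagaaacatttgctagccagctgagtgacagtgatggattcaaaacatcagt
AKR1C3, downstream window: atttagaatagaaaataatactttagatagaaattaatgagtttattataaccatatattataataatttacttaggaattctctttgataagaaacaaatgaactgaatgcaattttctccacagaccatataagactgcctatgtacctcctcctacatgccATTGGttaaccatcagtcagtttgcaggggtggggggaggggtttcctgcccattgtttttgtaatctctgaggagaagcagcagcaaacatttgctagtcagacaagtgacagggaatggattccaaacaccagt

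The AKR1C1 and AKR1C2 windows matched at 93.5% of aligned positions. The first AKR1C3 window matched that of AKR1C1 at 74.7% and its own downstream window at 69.4%. All 4 held a CCAAT box on the minus strand, at -77 for AKR1C1, -81 for AKR1C2, and -73 and -86 for AKR1C3, counted from the start of each window's table entry. CCAAT was present on 1 strand or the other in 34.6% of the 35116 windows of the same length. The antioxidant response element core TGACNNNGC, present in 13.3% of all windows, was in 0 of the 4. The AP-1 site TGANTCA (7.71% of all windows) and the interferon-stimulated response element core GAAANNGAA (8.11%) were likewise in 0 of the 4. The letters TATAAA (11.5% of all windows) occurred in 1, the first AKR1C3 window, at -26 on the minus strand. Both strands were searched, and the TGAC core and the AP-1 site can overlap. A match is a description of letters, and its absence says only that they are not in these windows.

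In SNB19, AKR1B10 went opposite ways with the 2 siRNAs. Its arrays read 7.17 and 6.89 with siRNA#2, 10.64 and 10.18 with siRNA#1, and 8.34 and 8.40 with scramble. The 3 groups did not overlap: siRNA#1 was highest, scramble lay between, and siRNA#2 was lowest. The group means were 7.03 ± 0.19 with siRNA#2, 10.41 ± 0.32 with siRNA#1 and 8.37 ± 0.04 with scramble (SD, n = 2 each). The siRNA#1 mean exceeded scramble by 2.04 ± 0.21 (SE of the fit), or 4.11-fold, which ranked 24 from the top of 8545 genes. The siRNA#2 mean differed from scramble by -1.34 ± 0.21, or 2.54-fold lower, which ranked 187 from the bottom. Between the siRNAs themselves, siRNA#2 differed from siRNA#1 by -3.38 ± 0.21, or 10.4-fold lower, the most negative difference of all 8545 genes in that comparison.

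In SF539, AKR1B10 was low in every group. Its arrays read 5.08 and 5.11 with siRNA#2, 5.01 and 5.44 with siRNA#1, and 5.27 and 4.71 with scramble. All 3 groups overlapped. The differences were 0.10 ± 0.21 for siRNA#2 and 0.23 ± 0.21 for siRNA#1 against scramble, and their sign turned when 1 array was left out (0.38 for siRNA#2 and 0.51 for siRNA#1 without scramble replicate 1, -0.18 and -0.05 without scramble replicate 2). With scramble, SF539 stood -3.38 ± 0.21 from SNB19, or 10.4-fold lower. The SF539 arrays lie between the lower quartiles and the medians of the arrays. Low signal in SF539 may therefore limit the size of this difference and understate it. Even the siRNA#2 arrays of SNB19, its lowest, were above every SF539 array.

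**Figure D1:**
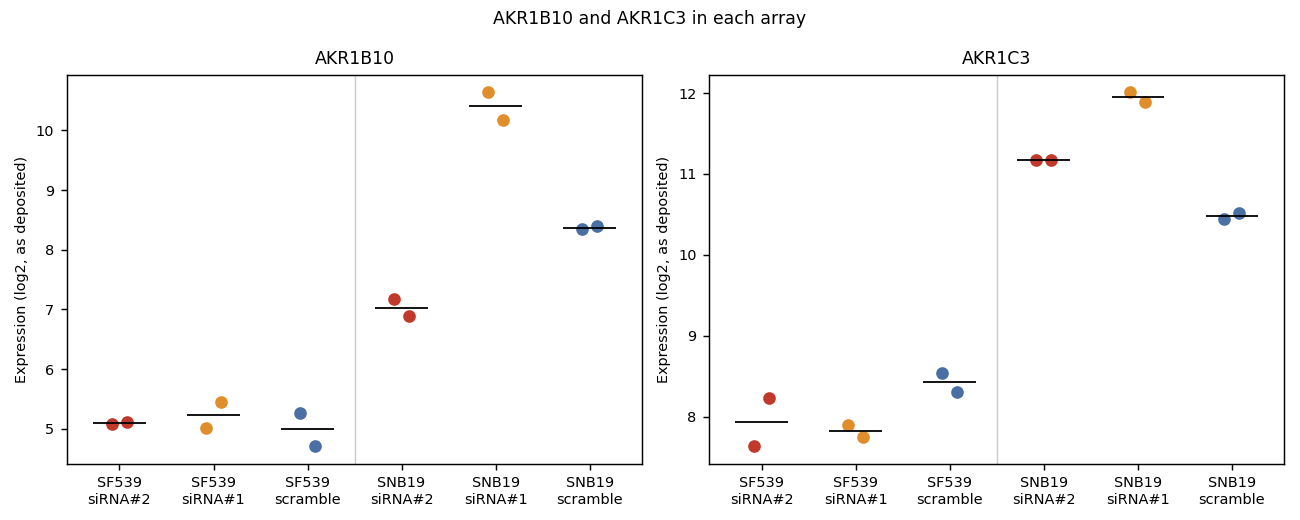
Log2 signal of AKR1B10 and AKR1C3 on each of the 12 arrays, with the lines and siRNAs along the x axis, points for arrays and horizontal lines for group means. AKR1B10 in SNB19 separates into 3 levels (7.03, 10.41 and 8.37 for siRNA#2, siRNA#1 and scramble), while in SF539 its groups overlap, and AKR1C3 is above scramble with both siRNAs in SNB19 and below it in SF539.

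AKR1C3 was higher than scramble with both siRNAs in SNB19, unlike AKR1B10. Its arrays read 11.17 and 11.17 with siRNA#2, 12.01 and 11.89 with siRNA#1, and 10.45 and 10.52 with scramble. The groups did not overlap, with siRNA#1 highest and scramble lowest. Against a scramble mean of 10.48 ± 0.05 (SD, n = 2), the siRNA#2 mean was higher by 0.69 ± 0.17 (SE), or 1.61-fold, ranking 429 from the top. The siRNA#1 mean of 11.95 ± 0.09 (SD, n = 2) was higher by 1.47 ± 0.17, or 2.77-fold, ranking 65 from the top. The 2 siRNAs differed by -0.78 ± 0.17, siRNA#2 minus siRNA#1.

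In SF539 the AKR1C3 differences had the opposite sign. Its arrays read 7.64 and 8.23 with siRNA#2, 7.90 and 7.75 with siRNA#1, and 8.54 and 8.31 with scramble. Both scramble arrays were above all 4 siRNA arrays, but the gap to the siRNA#2 arrays was only 0.08. The siRNA#2 mean of 7.94 ± 0.42 (SD, n = 2) differed from scramble by -0.49 ± 0.17 (SE), and by -0.78 without siRNA#2 replicate 2 or -0.20 without siRNA#2 replicate 1. The siRNA#1 mean of 7.82 ± 0.11 differed by -0.61 ± 0.17, or 1.52-fold lower, ranking 96 from the bottom. The 2 siRNA groups overlapped, and their difference was 0.12 ± 0.17.

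Ordered by group mean, AKR1B10 was highest in SNB19 with siRNA#1, followed by SNB19 scramble, SNB19 siRNA#2, and then the 3 SF539 groups, which overlapped their neighbours. AKR1C3 was highest in SNB19 with siRNA#1, followed by SNB19 siRNA#2, SNB19 scramble, SF539 scramble, SF539 siRNA#2 and SF539 siRNA#1, of which only the last pair overlapped. With scramble the AKR1C3 signal of SF539 stood -2.06 ± 0.17 from that of SNB19, or 4.16-fold lower. Both genes were therefore lower in SF539, and of the 2 only AKR1B10 had siRNA#2 below scramble in SNB19. The arrays measured RNA from whole cultures, in which fewer cells of a kind and less RNA per cell cannot be told apart.

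The other aldo-keto reductases were next compared with their own scramble arrays, with limma across all genes. Of 14 genes listed, 8 were measured under a single gene name: AKR1C1, AKR1C2, AKR1C4, AKR1D1, AKR7A2, AKR7A3, KCNAB1 and KCNAB2. AKR1C1 and AKR1C2 are hydroxysteroid dehydrogenases that inactivate progesterone and androgens. Their probe sets carry the x_at suffix, given to sets that can bind related transcripts, so AKR1C1, AKR1C2 and AKR1C3 may share some signal. The AKR1B10 probe set carries s_at, given to sets that match more than 1 transcript.

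With siRNA#1 in SNB19, AKR1C1 and AKR1C2 rose together. AKR1C1 read 11.54 and 11.19 with siRNA#1 and 9.74 and 9.87 with scramble, a rise of 1.56 ± 0.14 (SE, limma adjusted p = 3.41e-05). AKR1C2 read 10.63 and 10.43 with siRNA#1 and 9.0 and 9.01 with scramble, a rise of 1.52 ± 0.12 (limma adjusted p = 1.41e-05). No siRNA#1 array overlapped a scramble array for either gene. With siRNA#2 in SNB19, AKR1C1 read 9.70 and 9.45 and differed from scramble by -0.23 (adjusted p = 0.27). AKR1C2 then read 9.20 and 8.96 and differed by 0.08 (adjusted p = 0.693). The siRNA#2 minus siRNA#1 difference was -1.79 for AKR1C1 (limma adjusted p = 0.000115) and -1.45 for AKR1C2 (adjusted p = 0.000161). With siRNA#2 both AKR1C3 arrays were above both scramble arrays. On these probe sets both AKR1C1 arrays were below theirs and the AKR1C2 arrays overlapped theirs, but the other probe set of each gene differed. There the AKR1C1 arrays (8.66 and 9.02) overlapped scramble (8.95 and 9.01). Both AKR1C2 arrays (8.77 and 8.72) were above scramble (8.54 and 8.49), as for AKR1C3.

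In SF539 both neighbours fell with siRNA#2. AKR1C1 read 8.33 and 8.10 with siRNA#2, 9.05 and 9.11 with siRNA#1 and 9.66 and 9.52 with scramble. Its difference from scramble was -1.37 ± 0.14 with siRNA#2 (limma adjusted p = 0.000335) and -0.51 ± 0.14 with siRNA#1 (adjusted p = 0.0959). AKR1C2 read 7.13 and 7.03 with siRNA#2, 7.88 and 7.90 with siRNA#1 and 8.35 and 8.08 with scramble. It differed by -1.13 ± 0.12 with siRNA#2 (limma adjusted p = 0.000413) and by -0.33 with siRNA#1 (adjusted p = 0.204). The other AKR1C2 probe set gave -0.60 with siRNA#1, which passed (adjusted p = 0.0487). For both genes the 3 groups were in the order scramble, siRNA#1, siRNA#2 from high to low with no overlap. The siRNA#2 minus siRNA#1 difference was -0.86 for AKR1C1 (limma adjusted p = 0.0197) and -0.81 for AKR1C2 (adjusted p = 0.0145), and both calls were lost when the SF539 arrays were fitted alone (adjusted p = 0.149 and 0.178, within ranges of 0.00291 to 0.149 and 0.00331 to 0.178 over the alternatives) or without either siRNA#1 array, and that of AKR1C1 also without siRNA#2 replicate 2. On the other AKR1C2 probe set it was -0.51 and did not pass (adjusted p = 0.0774). Both probe sets of AKR1C1 and both of AKR1C2 gave the same direction as each other in SF539 with either siRNA and in SNB19 with siRNA#1. The siRNA#2 effect on AKR1C1 and AKR1C2 differed between the lines (SF539 minus SNB19) by -1.15 and -1.21 (limma adjusted p = 0.00341 and 0.00108), and the siRNA#1 effect by -2.07 and -1.85 (adjusted p = 0.000119 and 0.0001). Of all genes 20.5% differed between the lines for siRNA#2 and 13.0% for siRNA#1.

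The counts of the 8 were read against the share of all genes called at an adjusted p under 0.05. With siRNA#2 in SF539, 0 rose and 2 fell, where 15.2% of all genes were called (8.66% higher and 6.5% lower), and the list's median change was 0.04 against -0.03 over all genes. With siRNA#1 in SF539, 0 rose and 0 fell, where 2.73% of all genes were called (1.61% higher and 1.11% lower), and the medians were -0.03 and 0.00. With siRNA#2 in SNB19, 2 rose and 1 fell, where 29.7% of all genes were called (13.9% higher and 15.8% lower), and the medians were 0.06 and 0.00. With siRNA#1 in SNB19, 3 rose and 1 fell, where 26.1% of all genes were called (12.4% higher and 13.7% lower), and the medians were 0.29 and -0.01. Between siRNA#2 and siRNA#1, AKR1C1 and AKR1C2 were the 2 called in each line, both lower with siRNA#2. Of all genes 2.72% were called there in SF539 (1.84% higher and 0.878% lower) and 6.06% in SNB19 (3.08% higher and 2.98% lower). With median-centred arrays the share of calls that were higher was 44.8% and 45.1% in SF539 (siRNA#2 and siRNA#1), against 57.1% and 59.2% as deposited. In SNB19 it was 69.2% and 66.0%, against 46.9% and 47.4%, and the median of all genes shifted to 0.14 and 0.10.

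AKR7A2, which reduces succinic semialdehyde, rose in SNB19 by 0.65 with siRNA#2 (limma adjusted p = 0.000251) and by 0.50 with siRNA#1 (adjusted p = 0.00137). Its relative AKR7A3, an aflatoxin aldehyde reductase, rose by 0.38 with siRNA#2 (adjusted p = 0.0143), a call lost without scramble replicate 1 or siRNA#2 replicate 2 (adjusted p from 0.0025 to 0.122 over the alternatives), and differed by 0.23 with siRNA#1 (adjusted p = 0.109). KCNAB2, a potassium channel beta subunit of the family's fold, changed in SNB19 by -0.79 with siRNA#2 (adjusted p = 0.000393) and by -1.16 with siRNA#1 (adjusted p = 4.04e-05). With its probe sets averaged these were -0.19 and -0.51, and the siRNA#2 call was lost (limma adjusted p = 0.219). Its other, dimmer probe set went the other way in SNB19, averaging 4.75 with siRNA#2, 4.49 with siRNA#1 and 4.34 with scramble. There the siRNA#1 arrays overlapped scramble. KCNAB1, another channel subunit, differed by 0.25 with siRNA#2 (adjusted p = 0.0745) and by -0.01 with siRNA#1 (adjusted p = 0.978), and by 0.47 and 0.24 with its probe sets averaged, which made both calls (adjusted p = 0.00137 and 0.0446). AKR1C4 and AKR1D1, steroid reductases of the liver, were under the lower quartile on every array (2.77 to 3.50 and 2.60 to 3.19). None of these 6 passed in SF539 with either siRNA.

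**Figure D2:**
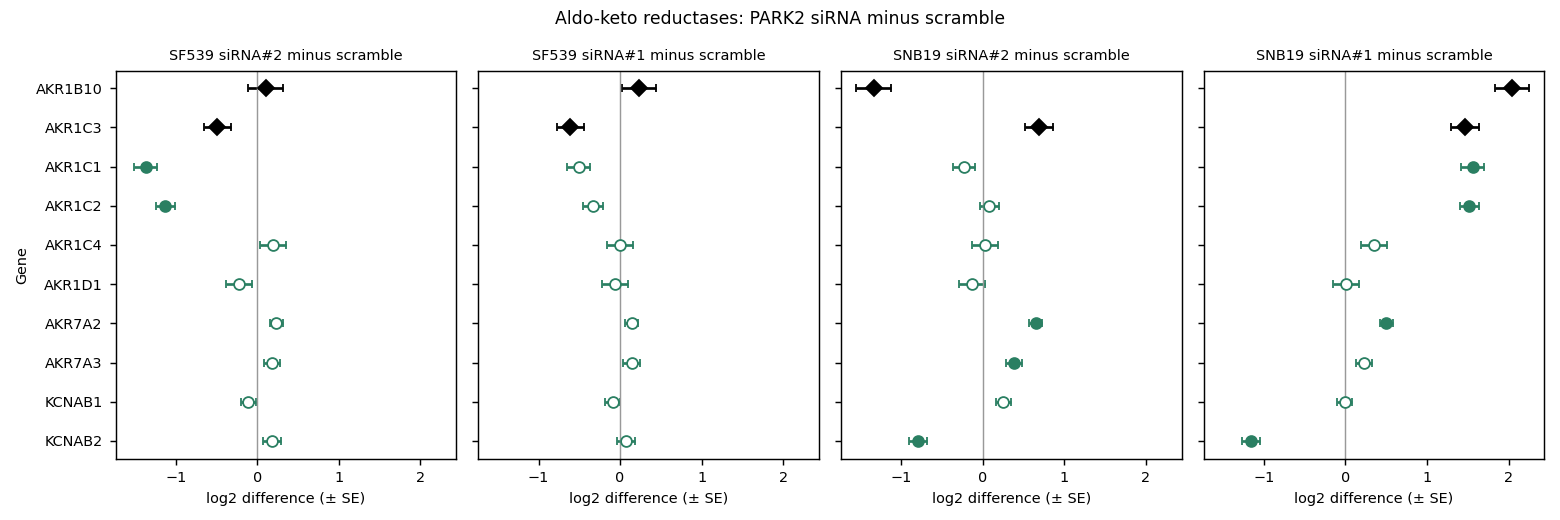
Difference from scramble (log2, with standard error bars) of AKR1B10, AKR1C3 (black diamonds, no test) and 8 other aldo-keto reductases (circles, filled where the adjusted p was under 0.05), with siRNA#2 and siRNA#1 apart in each line. AKR1C1 and AKR1C2 stand at 1.56 and 1.52 with siRNA#1 in SNB19, at -0.23 and 0.08 with siRNA#2 there, and at -1.37 and -1.13 with siRNA#2 in SF539.

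Because AKR1B10 and AKR1C3 are NRF2 targets, 24 other measured targets of 28 listed were examined. With siRNA#2 in SNB19, 6 rose and 5 fell, where 13.9% of all genes were higher and 15.8% lower, and the median change was 0.11 against 0.00 over all genes. With siRNA#1 in SNB19, 5 rose and 5 fell, where 12.4% were higher and 13.7% lower, with medians of 0.11 and -0.01. With siRNA#2 in SF539, 6 rose and 1 fell, where 8.66% were higher and 6.5% lower, with medians of 0.01 and -0.03. With siRNA#1 in SF539, 0 rose and 1 fell, where 1.61% were higher and 1.11% lower, with medians of -0.03 and 0.00.

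GCLM, the modifier subunit of the enzyme that limits glutathione synthesis, rose in SNB19 by 0.72 with siRNA#2 (limma adjusted p = 0.0022) and by 0.64 with siRNA#1 (adjusted p = 0.005). CBR3, a carbonyl reductase outside the aldo-keto family, changed in SNB19 by -1.42 with siRNA#2 (adjusted p = 0.000148) and by -1.26 with siRNA#1 (adjusted p = 0.000332). BLVRB, a biliverdin and flavin reductase, changed by -0.87 (adjusted p = 0.000159) and -1.09 (adjusted p = 4.35e-05). SQSTM1, an autophagy receptor, fell with siRNA#2 by 0.53 (adjusted p = 0.0131), a call lost in 4 of 12 alternatives (adjusted p from 0.00434 to 0.0837).

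HMOX1, which encodes a haem-degrading oxygenase, differed between the siRNAs in SNB19 in the direction opposite to AKR1B10. It read 8.18 and 8.14 with siRNA#2, 6.28 and 6.05 with siRNA#1, and 7.94 and 7.81 with scramble. It fell by 1.71 with siRNA#1 (limma adjusted p = 0.000477), differed by 0.28 with siRNA#2 (adjusted p = 0.415), and was higher by 1.99 with siRNA#2 than with siRNA#1 (adjusted p = 0.00115). The classic target NQO1, a quinone reductase, was lower with siRNA#2 than with siRNA#1 (difference -0.35, adjusted p = 0.0358), as were the thioredoxin reductase TXNRD1 (-0.38, adjusted p = 0.0437) and the exporter ABCC1 (-0.49, adjusted p = 0.0094). The cystine transporter subunit SLC7A11 was higher by 0.66 (adjusted p = 0.00972). The NQO1, TXNRD1, ABCC1 and SLC7A11 calls were lost in 8, 8, 3 and 4 of 12 alternatives, mostly with 1 SNB19 array left out (adjusted p of up to 0.266, 0.329, 0.103 and 0.0854), while that of HMOX1 was lost in 0. Of the 24 targets, 2 were thus higher and 3 lower with siRNA#2 than with siRNA#1, where 3.08% of all genes were higher and 2.98% lower, and the median difference was 0.04 against 0.01 over all genes.

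In SF539, HMOX1 changed by -1.15 with siRNA#2 (limma adjusted p = 0.0111) and by -1.46 with siRNA#1 (adjusted p = 0.013). These calls were lost in 3 and 4 of 12 alternatives (adjusted p from 2.19e-05 to 0.0863 and from 0.000549 to 0.173). With siRNA#2 the NADPH-producing malic enzyme ME1 rose by 0.98 (adjusted p = 0.00591), PIR, an iron-binding nuclear protein, by 0.98 (adjusted p = 0.00205), and EPHX1, an epoxide hydrolase, by 1.28 (adjusted p = 0.0146). The EPHX1 call was lost in 3 of 12 alternatives (adjusted p from 0.00168 to 0.0882). With siRNA#2 minus siRNA#1, 2 of 24 were higher (PIR by 0.68, adjusted p = 0.0371, and ABCC1 by 0.44, adjusted p = 0.032) and 0 lower, where 1.84% of all genes were higher and 0.878% lower. The PIR and ABCC1 calls were lost in 6 and 5 of 12 alternatives (adjusted p of up to 0.27 for each), fitting the SF539 arrays alone among them.

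**Figure D3:**
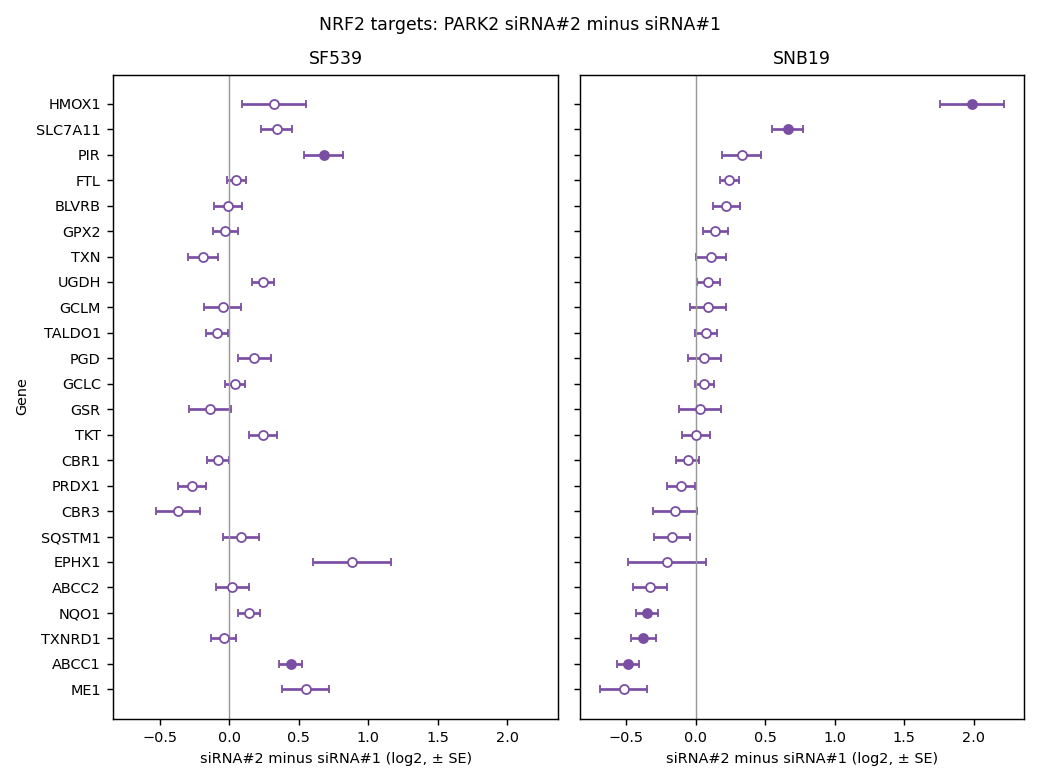
Difference between siRNA#2 and siRNA#1 (siRNA#2 minus siRNA#1, log2, with standard error bars) of the 24 measured NRF2 targets in SF539 and SNB19. Filled points passed an adjusted p under 0.05: PIR and ABCC1 in SF539, and HMOX1, SLC7A11, NQO1, TXNRD1 and ABCC1 in SNB19, where HMOX1 stands farthest from 0 at 1.99.

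The regulators of NRF2 were measured at 7 of 9 listed genes. NFE2L2 itself passed in no comparison with scramble, at 0.30 and -0.05 in SF539 (siRNA#2 and siRNA#1, adjusted p = 0.0737 and 0.856) and -0.24 and -0.10 in SNB19 (adjusted p = 0.107 and 0.545). KEAP1 did not pass either, at 0.11 and 0.10 in SF539 and -0.23 and -0.17 in SNB19 (adjusted p from 0.0741 to 0.61). CUL3, the ubiquitin ligase scaffold that works with KEAP1, and MAFG, a small MAF partner, passed in none of the 4 comparisons. In SF539 with siRNA#2, however, MAFG (-0.34, limma adjusted p = 0.0591) passed in 4 of 12 alternatives and NFE2L2 in 2 of 12. MAFF, another small MAF, changed in SNB19 by -0.75 with siRNA#2 (adjusted p = 0.00419) and by -0.47 with siRNA#1 (adjusted p = 0.0439), and in SF539 by -0.70 with siRNA#1 (adjusted p = 0.0441), the last 2 calls being lost in 9 and 6 of 12 alternatives. NFE2L1, a related factor that controls proteasome genes, changed in SNB19 by -0.49 with siRNA#2 (adjusted p = 0.00347) and -0.43 with siRNA#1 (adjusted p = 0.00806), the second call being lost in 2 of 12 alternatives. BACH1, the repressor, fell in SNB19 with siRNA#2 by 0.80 (adjusted p = 0.0176), a call lost in 4 of 12 alternatives, and differed in SF539 with siRNA#2 by 0.03, which became -0.40 without siRNA#2 replicate 2.

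The 4 pathways to which the enzymes' substrates belong were then counted. Retinoid metabolism and response, to which AKR1B10 belongs through retinal, had 13 of 20 genes measured. In SNB19 0 rose and 4 fell with each siRNA, where 15.8% (siRNA#2) and 13.7% (siRNA#1) of all genes were lower. The list's medians were -0.27 (siRNA#2) and -0.34 (siRNA#1), against 0.00 and -0.01 over all genes. PLAAT4, a phospholipase first found as a retinoid-induced gene and also induced by interferon, changed by -3.51 and -3.70 (adjusted p = 2.31e-07 and 1.39e-07). CYP26A1, which degrades retinoic acid, changed by -1.02 and -0.91 (adjusted p = 0.000304 and 0.000675), and CRABP2, which carries it, by -0.55 and -1.17 (adjusted p = 0.0073 and 9.91e-05). The CYP26A1 arrays read only 4.25 to 4.38 with the siRNAs, near the lower quartile, and 5.16 and 5.39 with scramble. Its sizes therefore carry limited meaning. RARA, a retinoic acid receptor, fell by 0.53 with siRNA#2 (adjusted p = 0.0228), and DHRS3, which turns retinal back to retinol, fell by 1.01 with siRNA#1 (adjusted p = 0.0137). The CRABP2 call with siRNA#2 and the RARA and DHRS3 calls were lost in 2, 4 and 3 of 12 alternatives.

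In SF539 the retinoid list had 2 higher and 1 lower with siRNA#2 and 0 of either with siRNA#1, where 15.2% and 2.73% of all genes were called. The list's medians were -0.02 and 0.05, against -0.03 and 0.00 over all genes. DHRS3 rose by 1.37 (adjusted p = 0.00628), the receptor RARB by 0.84 (adjusted p = 0.0471), and ALDH1A3, which makes retinoic acid, fell by 0.55 (adjusted p = 0.0467). These calls were lost in 1, 9 and 6 of 12 alternatives, and RARB was 0.08 with its probe sets averaged.

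Of the genes of prostaglandin metabolism and receptors, 18 of 21 were measured. In SNB19, 2 rose and 1 fell with siRNA#2 and 1 rose and 1 fell with siRNA#1, where 29.7% and 26.1% of all genes were called, and the medians were 0.03 and -0.03, against 0.00 and -0.01 over all genes. ABCC4, which exports prostaglandins, rose by 0.92 and 0.87 (adjusted p = 6.64e-05 and 0.000115). PTGFR, the receptor for prostaglandin F, fell by 1.50 with siRNA#2 (adjusted p = 0.000338). The importer SLCO2A1 rose by 0.55 with siRNA#2 (adjusted p = 0.0289), and PTGS2, an enzyme at the head of the pathway, passed at -0.97 with siRNA#1 (adjusted p = 0.0413), calls lost in 4 and 7 of 11 alternatives. The PTGS2 arrays read 2.90 and 2.63 with siRNA#1 and 3.81 and 3.67 with scramble, all under the lower quartile, so this size carries little meaning. In SF539, PTGER2, a prostaglandin E receptor, rose by 1.02 with siRNA#2 (adjusted p = 0.0436, lost in 7 of 11 alternatives), 1 of 18, and 0 passed with siRNA#1, where 15.2% and 2.73% of all genes were called, with medians of -0.04 and -0.07 against -0.03 and 0.00.

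Of the genes of steroid metabolism and receptors, 22 of 28 were measured. In SNB19, 4 rose and 3 fell with siRNA#2 and 3 rose and 3 fell with siRNA#1, where 29.7% and 26.1% of all genes were called, and the medians were 0.04 and 0.03, against 0.00 and -0.01 over all genes. CYP19A1, the aromatase that makes oestrogens, rose by 0.66 and 1.03 (adjusted p = 0.00737 and 0.000635), the siRNA#2 call being lost in 2 of 11 alternatives. Its scramble arrays read 3.66 and 4.01, near the lower quartile, and its siRNA arrays only 4.47 to 4.94, so these sizes carry limited meaning. SRD5A1, which reduces testosterone to its more potent form, changed by -0.93 and -0.99 (adjusted p = 4.15e-05 and 2.87e-05), and by -0.34 and -0.28 with its probe sets averaged. HSD17B4, a peroxisomal enzyme, rose by 0.84 and 0.78 (adjusted p = 9.26e-05 and 0.000161). STS rose by 0.50 with siRNA#2 (adjusted p = 0.0459) and SULT2B1, a sulfotransferase, fell by 0.40 with siRNA#1 (adjusted p = 0.0158), calls lost in 7 of 12 and 4 of 11 alternatives. The SULT2B1 arrays read only 4.27 and 4.35 with siRNA#1 and 4.85 and 4.59 with scramble, so its size carries limited meaning. In SF539, 1 was called higher and 2 lower with siRNA#2 (HSD17B4 at 0.32, CYP11A1 at -0.53 and PGR at -0.43), and 1 higher with siRNA#1 (HSD17B2 at 0.46), where 15.2% and 2.73% of all genes were called. The medians were 0.00 and 0.03, against -0.03 and 0.00. Each of these 4 calls was lost in 3 or more alternatives, with adjusted p of up to 0.178, 0.151, 0.213 and 0.259. CYP11A1, PGR and HSD17B2 were also at or under the lower quartile in nearly every array compared (group means of 3.03 against 3.55, 3.61 against 4.04, and 3.56 against 3.10, siRNA against scramble), where a difference carries little meaning.

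Of the genes of aldehyde detoxification and the polyol pathway, 14 of 17 were measured. In SNB19, 7 rose and 0 fell with siRNA#2 and 7 rose and 1 fell with siRNA#1, where 13.9% and 12.4% of all genes rose, and the list's medians were 0.33 and 0.34 against 0.00 and -0.01. ALDH6A1, a mitochondrial enzyme of valine breakdown, rose by 0.65 and 0.61 (adjusted p = 0.000401 and 0.000627), and by 0.27 and 0.34 with its probe sets averaged. With siRNA#2, ESD, which completes formaldehyde removal, rose by 0.58 (adjusted p = 0.00178), ALDH1B1 by 0.63 (adjusted p = 0.0367) and ALDH7A1 by 0.57 (adjusted p = 0.00833). With siRNA#1, ALDH9A1 rose by 0.61 (adjusted p = 0.000717) and ALDH3A1 by 0.59 (adjusted p = 0.0133), and ALDH3B1 fell by 0.75 (adjusted p = 0.0159). The ALDH3A1 arrays read only 4.83 and 4.80 with siRNA#1 and 4.16 and 4.29 with scramble, so its size carries limited meaning. The ESD, ALDH1B1 and ALDH7A1 calls were lost in 1, 7 and 2 of 12 alternatives, ALDH3A1 in 3 of 11 and ALDH3B1 in 3 of 12. In SF539, 2 rose and 1 fell with siRNA#2 and 1 rose with siRNA#1, where 8.66% and 1.61% of all genes rose and 6.5% and 1.11% fell. The list's medians were 0.15 and 0.16, against -0.03 and 0.00 over all genes. ALDH6A1 rose there by 0.71 and 0.67 (adjusted p = 0.000897 and 0.00543), ALDH7A1 by 0.57 with siRNA#2 (adjusted p = 0.0178), and the glyoxalase HAGH fell by 0.48 with siRNA#2 (adjusted p = 0.00617). The calls of ALDH6A1 with siRNA#1, ALDH7A1 and HAGH were lost in 2, 3 and 1 of 12 alternatives.

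**Figure D4:**
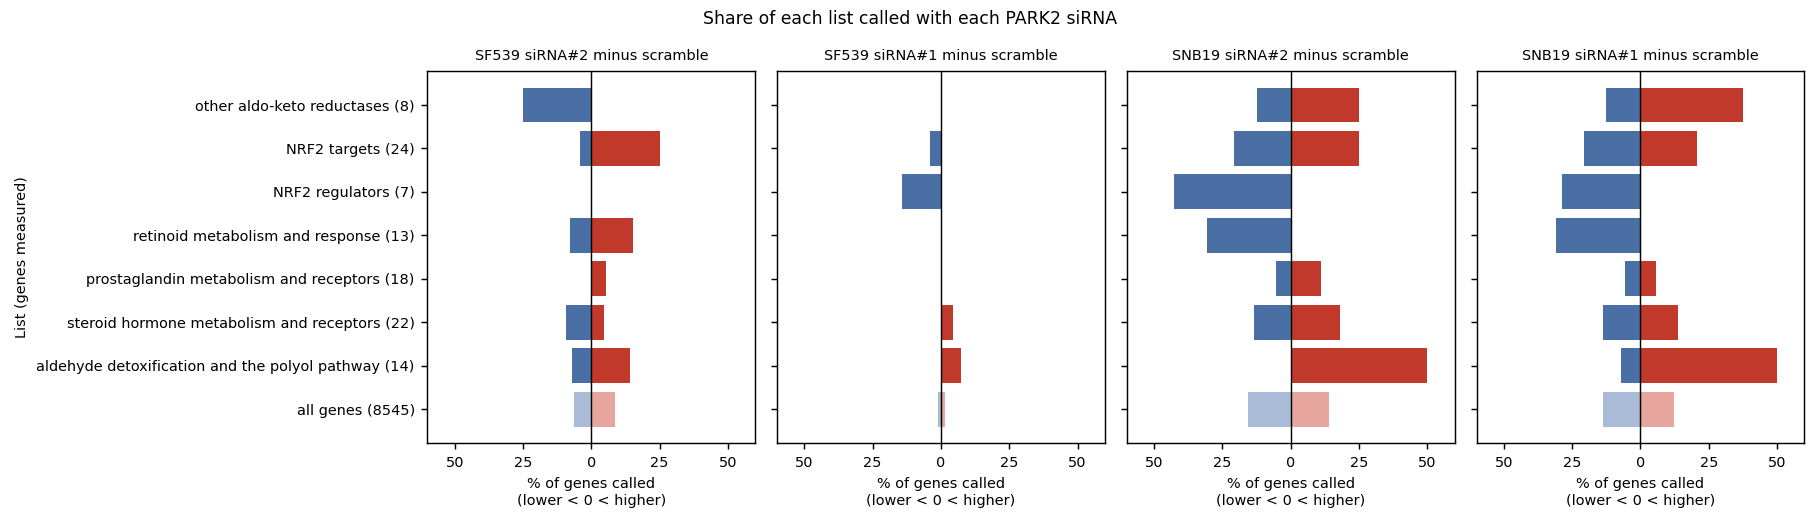
Percent of the measured genes of each list called higher (right of 0) or lower (left of 0) with each siRNA against scramble in each line, with all 8545 genes in paler bars at the bottom. In SNB19 the aldehyde list has 7 of 14 genes higher with each siRNA, where 13.9% and 12.4% of all genes were higher (siRNA#2 and siRNA#1).

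Interferon-stimulated genes moved with the same contrast in SNB19. All 14 measured of 15 fell with each siRNA, where 15.8% (siRNA#2) and 13.7% (siRNA#1) of all genes were lower. The list was chosen because interferon genes were already known to differ between scramble and PARK2 siRNA on these arrays. Its count is therefore a description and not an independent result. The list's medians were -5.62 (siRNA#2) and -6.24 (siRNA#1). The mean level of the 14 per array was 6.19 to 6.47 with siRNA#2, 5.92 to 5.97 with siRNA#1 and 11.73 to 11.75 with scramble. In SF539 it was 10.45 to 10.55, 10.41 to 10.42 and 10.69 to 10.75. There 0 rose and 2 fell with each siRNA (OAS1 and RSAD2), where 6.5% (siRNA#2) and 1.11% (siRNA#1) of all genes were lower. The OAS1 and RSAD2 calls with siRNA#1 were lost in 5 and 4 of 12 alternatives, and those with siRNA#2 in 1 and 0. The part of the interferon difference in the AKR1B10 and AKR1C3 differences was not tested.

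Marker lists of other cell types were measured in the same arrays. In SNB19, where 13.9% and 12.4% of all genes were higher and 15.8% and 13.7% lower (siRNA#2 and siRNA#1), the mean level of 7 leukocyte and microglia markers was 4.39 to 4.40 with siRNA#2, 4.32 to 4.40 with siRNA#1 and 4.37 to 4.38 with scramble, with 0 of 7 called, and PTPRC, which marks leukocytes, was at most 3.09 on any array. The 8 epithelial markers averaged 5.16 to 5.20, 5.32 to 5.38 and 5.31 to 5.33, with 1 higher and 2 lower with siRNA#2 and 2 higher and 1 lower with siRNA#1. Among them KRT19, a keratin, averaged 5.11, 5.58 and 4.09, and CLDN4, a tight junction protein, 4.81, 5.09 and 6.37. The 6 endothelial markers averaged 4.47 to 4.51, 4.61 to 4.66 and 4.20 to 4.26, with 2 higher with each siRNA. One of them, the growth factor receptor KDR, averaged 5.07, 6.08 and 4.59. Of 10 glial markers 3 were higher with each siRNA, GFAP among them. The part of these markers in the AKR1B10 and AKR1C3 differences was not tested.

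The genes with the most similar pattern were found by Pearson's r, as a description, among the 869 genes that ranged over at least 1 log2 unit across the 6 SNB19 arrays. These arrays fall into 3 groups of 2, so few independent steps lie behind each r. CD180, a Toll-like receptor relative, came first for AKR1B10 with r = 0.9965, reading 6.14 and 6.03 with siRNA#2, 9.01 and 8.83 with siRNA#1, and 7.03 and 7.09 with scramble. PC, the pyruvate carboxylase, followed with r = 0.9789 and RAB40B, a small GTPase, with r = 0.9761. For AKR1C3 the nearest were the secreted glycoprotein CHI3L1 (r = 0.9983), the actin-binding ABLIM1 (0.9978) and the receptor LRP4 (0.9976). CHI3L1 read only 2.80 and 3.10 with scramble, under the lower quartile, and 4.29 and 4.49 with siRNA#2, near it. Its r therefore rests in part on low signal. AKR1B10 and AKR1C3 themselves had r = 0.628 over these 6 arrays. In SF539 neither gene ranged over 1 unit, so no gene was named.

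Over all 12 arrays and 3214 genes, where the line difference sets most of r, the nearest to AKR1B10 were COL4A4 (0.9817), BBOX1 (0.977) and RAPGEF5 (0.9764). These genes ranged only from 3.43 to 5.39, 2.56 to 4.50 and 2.97 to 5.26. All were under the lower quartile on every SF539 array, which limits what their r means. The nearest to AKR1C3 were ABLIM1 (0.9902), SORL1 (0.9899) and APBB2 (0.9888), and the 2 enzymes had r = 0.907. CHI3L1 had r = -0.512 with AKR1C3 there. It read 7.24 and 12.04 on the SF539 siRNA#2 arrays, against 6.30 and 6.53 with siRNA#1 and 6.38 and 6.53 with scramble, so that 1 siRNA#2 array stood far above the other. The same array, replicate 2, had the higher AKR1C3 value of its pair.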

How the data were processed

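RNA from 12 samples of SF539 and SNB19 was measured on Affymetrix arrays. The authors deposited log2 values per probe set. Partek was used, per the submitters' processing notes. How background was corrected and values normalized and summarised, and the build, is not given in the sources used here. No value column was left unmapped.

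Of 16376 probe sets, 14038 had 1 gene, 792 several and 1546 none. Symbols of 14028 were updated through Entrez identifiers in RefSeq (GRCh38.p14). For 3361 genes with several probe sets, the one brightest on average was kept, leaving 8545 genes.

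One limma 3.58.1 fit in R 4.3.3 held the 12 arrays in their 6 groups (6 residual and 3.65 prior degrees of freedom). Tests were two-sided, with Benjamini-Hochberg adjustment over all genes at 0.05. The fit was tested on simulated data. A list member is named if it is 1 of the 4 largest called changes of an siRNA against scramble, and all members of the aldo-keto reductase and NRF2 regulator lists are named. The NRF2 targets named between the siRNAs, the glial, epithelial and endothelial markers and PTPRC were chosen after their values were seen. AKR1B10, AKR1C3 and the lists were chosen with earlier results of these data known. Both siRNA comparisons of a line share its scramble arrays.

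Alternatives were a replicate block, median centring, quantile normalization, fits of 1 line alone, averaged probe sets, omission of the dimmest 40% of genes, and omission of each array in turn, which assumes that its partner varies as the other groups do. An omission was read only for the comparisons within the omitted array's own line. Promoter windows came from the RefSeq table. Plots used matplotlib 3.10.9 and Python 3.11.15.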

Additional observations from a re-analysis of the deposited data

Results flagged for a closer look

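The changes of AKR1C3 had opposite signs in the lines on every array, by -2.07 with siRNA#1 and -1.18 with siRNA#2 (SF539 minus SNB19). This difference was not tested. With the same siRNAs the neighbouring AKR1C1 differed between the lines by -2.07 (siRNA#1, limma adjusted p = 0.000119) and -1.15 (siRNA#2, adjusted p = 0.00341), and AKR1C2 by -1.85 (adjusted p = 0.0001) and -1.21 (adjusted p = 0.00108). The share of all genes that differed between the lines was 13.0% for siRNA#1 and 20.5% for siRNA#2.

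Among the other genes, the siRNA effect in SF539 minus that in SNB19 was tested in the same fit. For siRNA#1 it was 1.23 for KCNAB2 (limma adjusted p = 0.000576), -0.96 for GCLM (adjusted p = 0.00817), 1.20 for CBR3 (adjusted p = 0.00797) and 0.98 for BLVRB (adjusted p = 0.0018). For siRNA#2 it was -0.42 for AKR7A2 (adjusted p = 0.0292), 0.98 for KCNAB2 (adjusted p = 0.00181), -1.10 for GCLM (adjusted p = 0.00286), -1.43 for HMOX1 (adjusted p = 0.0144), 1.18 for ME1 (adjusted p = 0.00934), 0.94 for PIR (adjusted p = 0.00919), 0.99 for CBR3 (adjusted p = 0.015) and 0.76 for BLVRB (adjusted p = 0.00543). ME1 read only 3.84 to 4.70 on the SNB19 arrays, near the lower quartile, so low signal there limits what its line difference means. HMOX1 read 11.36 and 10.42 on its SF539 siRNA#2 arrays. None of the calls between lines, those of AKR1C1 and AKR1C2 included, was checked under the alternatives. The KCNAB2 values rest on 1 of its probe sets, and in SNB19 the other had the opposite sign with each siRNA. With its probe sets averaged, KCNAB2 changed in SNB19 by -0.51 with siRNA#1 and -0.19 with siRNA#2, against -1.16 and -0.79 on that probe set.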

How the results depend on the processing

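The AKR1B10 and AKR1C3 changes in SNB19 kept their signs and moved by less than 1 SD between replicates under both normalizations and with any SNB19 array left out. Fits of 1 line alone, averaged probe sets and omission of dim genes were not evaluated for these changes. They cannot alter a difference of group means for a gene with 1 probe set. With 1 array left out, AKR1B10 in SF539 lay between -0.18 and 0.38 (siRNA#2) and between -0.05 and 0.51 (siRNA#1), and AKR1C3 between -0.78 and -0.20 (siRNA#2) and between -0.18 and 0.41 (siRNA#2 minus siRNA#1). Of all genes, 615 to 2593 were then called with siRNA#2 and 16 to 802 with siRNA#1 in SF539 (1295 and 233 with all arrays), 3 to 2303 between its siRNAs (232), 1593 to 2319 with siRNA#2 and 1405 to 2028 with siRNA#1 in SNB19 (2540 and 2228), and 134 to 366 between its siRNAs (518). NRF2 targets called were 5 to 12, 0 to 2, 0 to 9, 7 to 11, 6 to 9 and 1 to 3 in the same order, and other aldo-keto reductases 0 to 1 with siRNA#1 and 0 to 2 between siRNAs in SF539. With the arrays of 1 line alone, 308, 1 and 0 genes were called in SF539 (siRNA#2, siRNA#1 and between siRNAs) and 1122 between siRNAs in SNB19. NRF2 targets called in SF539 were then 3, 0 and 0, and other aldo-keto reductases between siRNAs 0. Leaving out the dimmest genes called 356 between siRNAs in SF539 and 2 NRF2 targets with siRNA#1 there. Averaging probe sets called 1 NRF2 target between siRNAs in SF539 and turned KCNAB1 in SNB19 with siRNA#1 to 0.24, and median centring called 3 between siRNAs in SNB19. BACH1 in SF539 with siRNA#2 was 0.45 without siRNA#2 replicate 1 and -0.40 without siRNA#2 replicate 2. The cause of these shifts was not tested. Between pairs of groups, the deviations of same-numbered replicates had r of -0.18 to 0.109, given as a description. Whether the numbers pair the samples was not tested. With a replicate block the AKR1B10 and AKR1C3 changes were identical. The balanced design fixes this in advance, since each group holds 1 array of each number. In that fit 172, 1241, 2185 and 2509 genes were called (siRNA#1 and siRNA#2 in SF539, then in SNB19). A crossed replicate block, chosen after seeing the data, called 221 with siRNA#1 in SF539. Low signal, between the arrays' lower quartile and median, limits AKR1B10 in SF539 and KCNAB1 on the probe set used. Signal near or under the lower quartile limits AKR1C4, AKR1D1, and, in SF539, CYP11A1, PGR, HSD17B2, COL4A4, BBOX1 and RAPGEF5. In SNB19 it limits PTGS2, ME1, ALDH3A1, SULT2B1, the siRNA arrays of CYP26A1 and the scramble arrays of CYP19A1 and CHI3L1.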
